A study of Mus musculus with 6 samples.

Results

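Integrins and the proteins that gather at focal adhesions were followed here as 32 genes, comprising 12 integrin alpha chains, 5 beta chains, the secreted integrin beta-like protein Itgbl1 and 14 focal adhesion adaptors, kinases and actin linkers. They were chosen by gene symbol, with earlier results of these data known. All 32 were found among the 57180 identifiers of the count table. Of these, 20 had enough counts to be tested, 5 had a few counts and 7 were listed at 0 in every library. The data are 6 libraries of calvaria-derived cells, isolated from skull bone and differentiated in medium that holds β-glycerophosphate and ascorbate, with a final parallel culture of 72 h that began on day 14. The wt group holds 3 libraries of cells from C57BL/6 mice. The gld group holds 3 libraries of cells from B6Smn.C3-Faslgld/J mice, which are homozygous for gld, an inherited mutation of the Fas ligand gene Fasl present in every cell, and whose genotype the labels give as FasL KO. Both groups grew in parallel in the same medium, and gld cells that received recombinant Fas ligand are not analysed here. The labels do not say if libraries within a group are different mice or separate dishes, and neither sex nor age is given, so each p-value reflects library-to-library spread alone, and that spread may be technical.

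An integrin is a pair of 1 alpha and 1 beta chain that spans the cell membrane and holds the matrix outside. Talins and kindlins bind the tail of the beta chain inside the cell and switch the receptor on. Vinculin, the complex of ILK, PINCH and parvin, tensins and the LIM proteins zyxin and LPP then tie the receptor to actin, and the kinase FAK with its scaffolds paxillin and p130Cas passes on signals. Beta 1 integrins serve bone-forming cells in binding collagen and fibronectin, and beta 3, as the partner of alpha v, is best known in bone as the vitronectin receptor of osteoclasts.

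The libraries held 2011173, 3105322 and 3054280 counts in wt against 4210024, 4048258 and 5245546 in gld, and the 20 most abundant genes took 17.6 to 19.5% of counts in wt and 27.1 to 28.3% in gld. Levels are depth-scaled counts (CPM, counts per 1000000 counts of a library after scaling by trimmed mean of M values, TMM), given as mean ± SD over 3 libraries, and changes are log2 fold changes, gld minus wt, with their SE. Reads come from the 3′ end of a transcript, so no length correction was applied, and levels of different genes were not ranked against each other. Fasl itself was listed at 0 in all 6 libraries, and a 3′ tag count could not show a point mutation such as gld in any case, so it does not check the labels. The cultures carried Col1a1 and Col1a2 at high levels, while the osteoblast markers Bglap, Spp1 and Sp7 had 1, 4 and 20 counts over the 6 libraries, and Dlx5 was at 0. A listed 0 or a low count was not read as absence of a transcript, for a reason given below. Of 15 osteoblast markers, 8 could be tested, of which 6 were higher in gld, Alpl was lower and Runx2 did not pass. The median log2 fold change of those 8 was 3.05. The chondrocyte markers were at 212 to 224 CPM in sum in wt and 1054 to 1110 in gld, with all 5 tested of 11 higher. Of other cell type lists, skeletal muscle (Acta1), epithelium (Cdh1) and glia had 1 gene higher each. None of 2 endothelial genes and 1 platelet gene that could be tested passed. In bulk libraries, fewer cells of a type and less RNA per cell cannot be told apart.

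Among the receptors and adaptors, the integrin beta 3 chain was 8.74-fold lower in gld, the adaptor Lpp 2.30-fold lower and the kindlin Fermt2 1.77-fold lower. Itga6, the alpha 6 chain of laminin receptors, was 4.37-fold higher, Itga1, a collagen receptor chain, 1.83-fold higher, and Itga9 1.72-fold higher. The remaining 14 tested genes did not pass, among them Itgb1, the beta chain that most of these alpha chains pair with. Thus 6 of the 20 tested genes (30.0%) passed, at a threshold of 0.05 on the Benjamini-Hochberg adjusted p of edgeR's quasi-likelihood fit, with 3 higher and 3 lower, against 17.4% of all 8692 genes tested (9.74% higher and 7.69% lower). By kind, 3 of 7 tested alpha chains rose and none fell. Of 4 tested beta chains 1 fell, and of 9 tested adaptors, kinases and linkers 2 fell, with none higher among either kind. The median log2 fold change of the 20 was −0.01, beside 0.02 for all genes tested, with 10 values above and 10 below 0. The median absolute value was 0.80, beside 0.47. Groups did not overlap in 12 of the 20, against 33.3% of all genes tested. Because the genes were chosen with earlier results of these data known, these shares are descriptive and do not test the set.

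**Figure D1:**
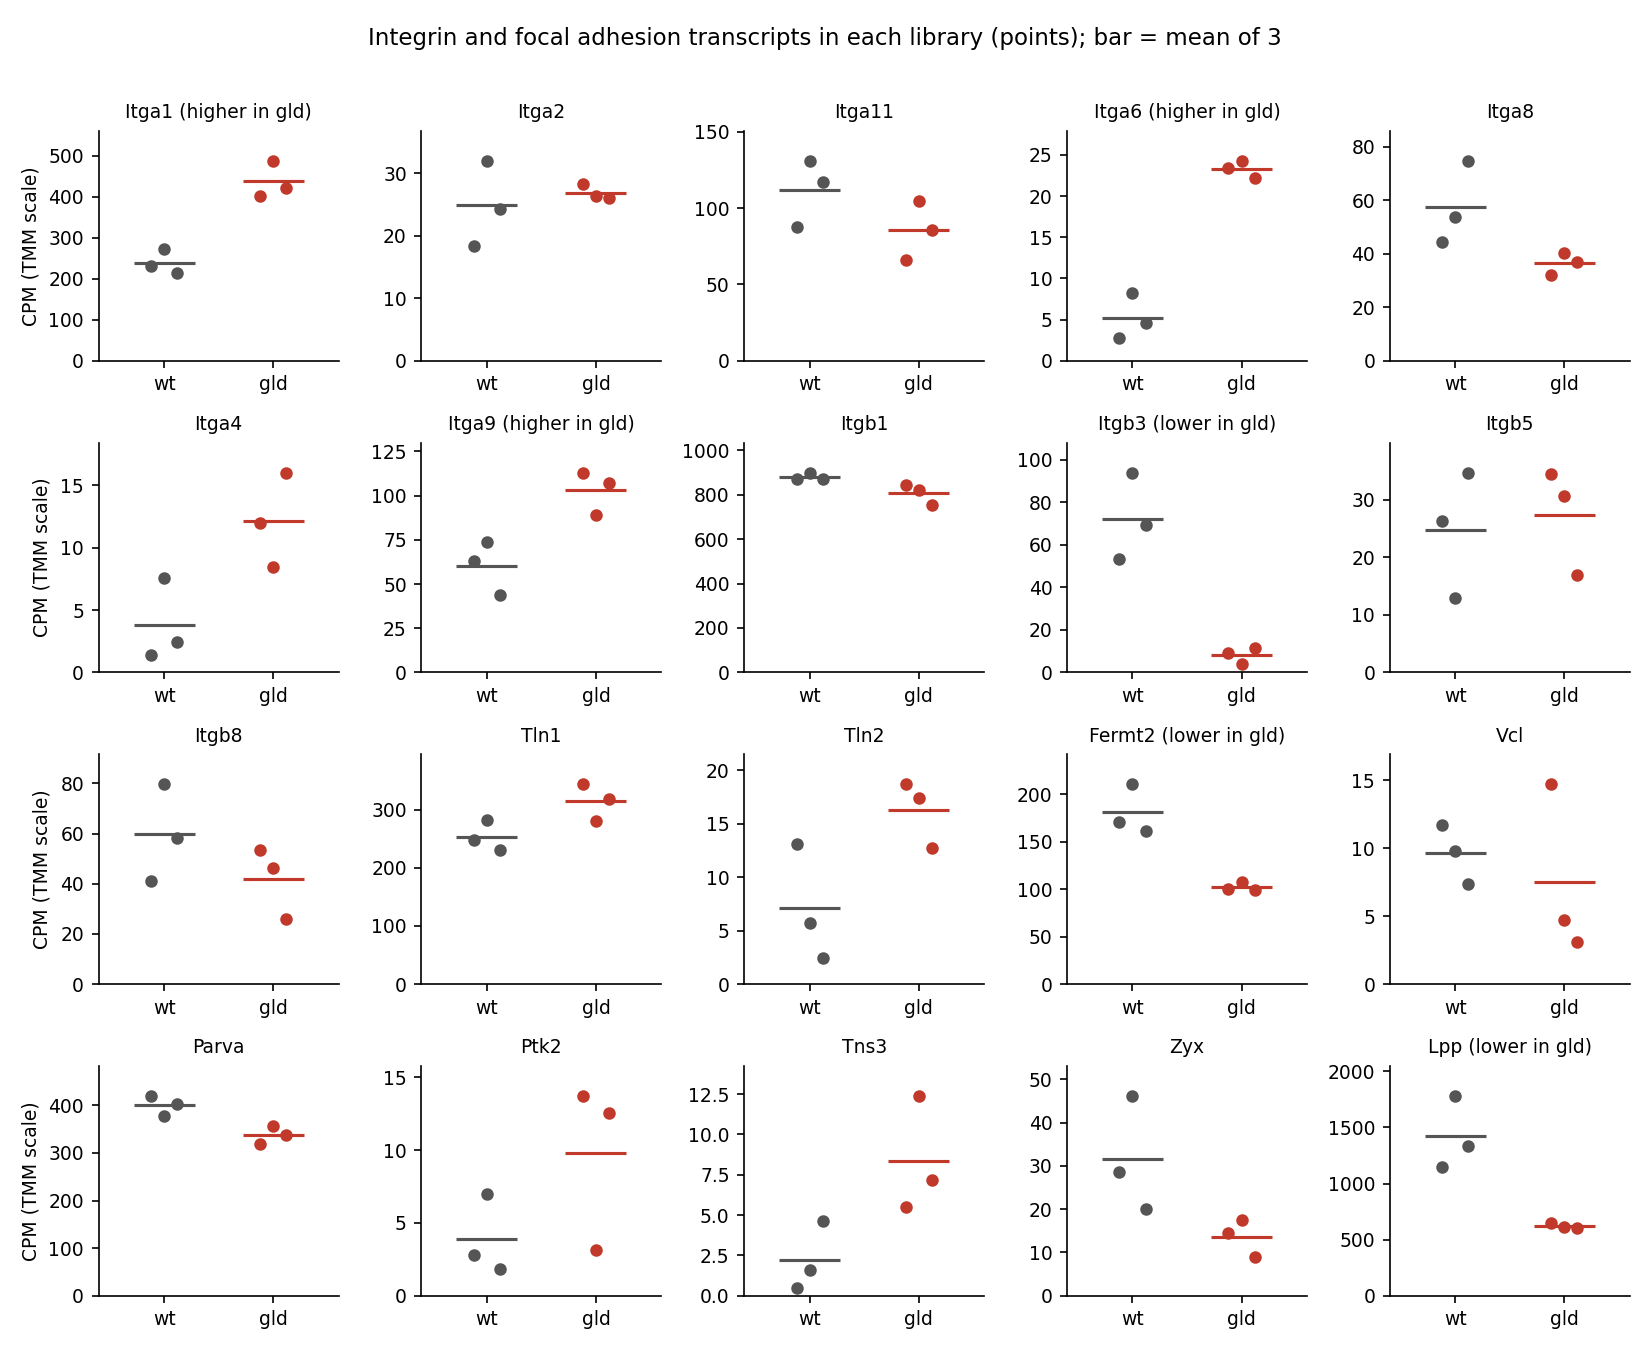
Level of each of the 20 tested genes in CPM on the TMM scale (vertical axis, linear, from 0, with its own range in each panel) in the 3 wt and 3 gld libraries (points), with the mean as a bar. The gld libraries lay wholly below wt for Itgb3, Lpp and Fermt2 and wholly above wt for Itga1, Itga6 and Itga9.

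**Figure D2:**
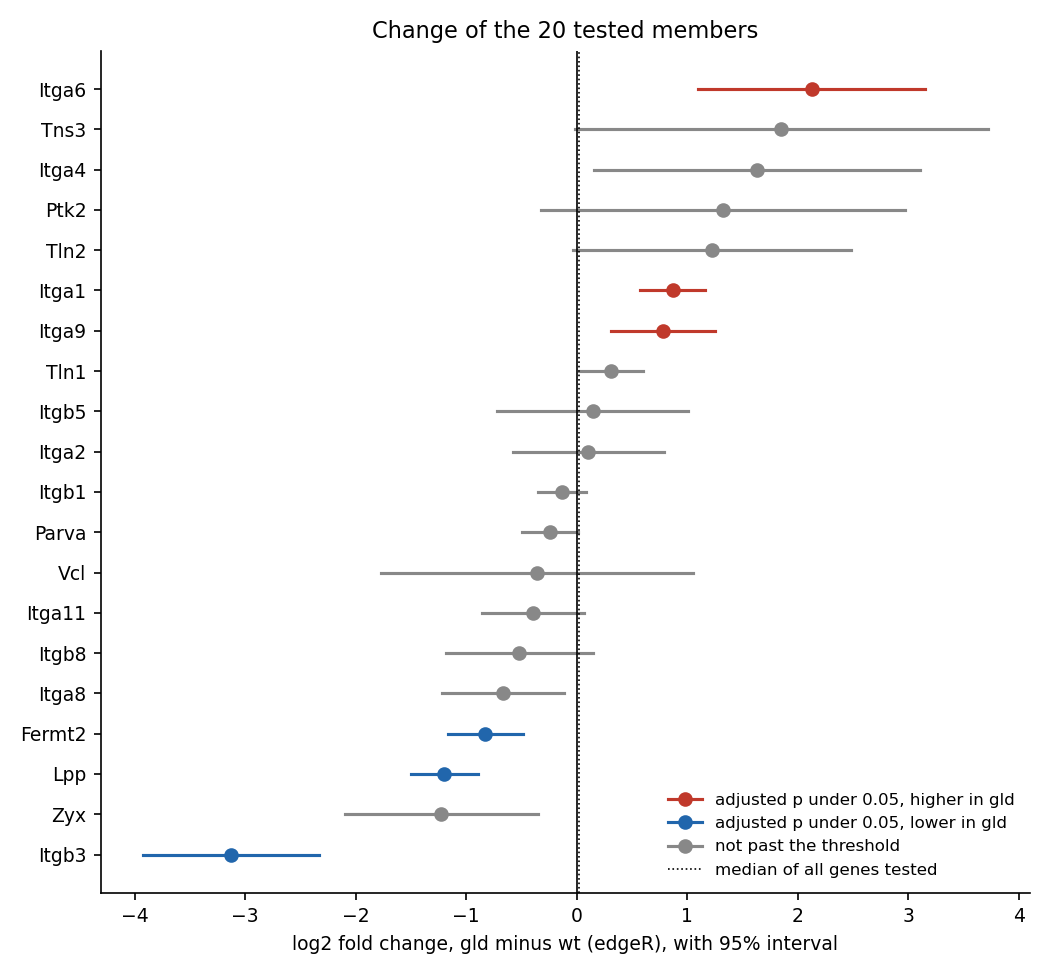
Log2 fold change, gld minus wt, of the 20 tested genes with its 95% interval from edgeR, in order of size. Values ran from −3.13 for Itgb3 to 2.13 for Itga6, and the widest intervals belong to genes with few counts such as Tns3 and Ptk2.

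Promoters of 4 of these genes are shown first, of which 2 fell (Fermt2 and Lpp), 1 rose (Itga1) and 1 did not pass (Vcl). They are examples and were not drawn to represent the 32 genes. RefSeq promoter sequences on GRCm38.p6, the 250 bases before a transcription start, were found for 25 of the 32 genes, with 32 starts in all. Itgb3 and Itga6, with the largest fall and the largest rise among the tested genes, had none. Both strands were searched for GGAATG (TEAD), TGANTCA (AP-1), TGTGGT (RUNX), GGGCGG (SP1) and the CArG box, the site of serum response factor. Matches are in capitals, and each sequence reads 5′ to 3′ on the gene's own strand and ends at the base before the start.
Fermt2: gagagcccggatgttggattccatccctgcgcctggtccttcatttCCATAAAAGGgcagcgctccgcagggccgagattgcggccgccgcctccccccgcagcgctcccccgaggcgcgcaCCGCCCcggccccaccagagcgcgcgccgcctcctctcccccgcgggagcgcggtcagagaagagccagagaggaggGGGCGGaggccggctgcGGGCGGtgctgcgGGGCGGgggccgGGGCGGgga
Vcl: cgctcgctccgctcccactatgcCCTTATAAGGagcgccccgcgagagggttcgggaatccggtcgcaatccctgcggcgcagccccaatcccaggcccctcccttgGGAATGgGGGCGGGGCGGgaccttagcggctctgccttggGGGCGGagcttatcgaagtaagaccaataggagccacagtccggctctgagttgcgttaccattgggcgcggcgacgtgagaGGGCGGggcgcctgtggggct
Lpp: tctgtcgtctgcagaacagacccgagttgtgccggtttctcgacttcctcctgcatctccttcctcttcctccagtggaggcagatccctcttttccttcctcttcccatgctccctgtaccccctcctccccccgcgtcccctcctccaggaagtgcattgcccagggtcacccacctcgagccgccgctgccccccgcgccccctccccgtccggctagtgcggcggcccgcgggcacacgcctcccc
Itga1: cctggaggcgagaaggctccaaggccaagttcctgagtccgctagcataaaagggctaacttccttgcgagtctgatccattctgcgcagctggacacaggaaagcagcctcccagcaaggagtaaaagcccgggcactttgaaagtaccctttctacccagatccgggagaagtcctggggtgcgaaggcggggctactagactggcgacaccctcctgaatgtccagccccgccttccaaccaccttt

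These windows lie at chr14:45530066-45530315 (minus strand) for Fermt2, chr14:20929148-20929397 (plus) for Vcl, chr16:24393100-24393349 (plus) for the first of 2 Lpp starts and chr13:115101965-115102214 (minus) for Itga1. The CArG box starts 204 bases before the start of Fermt2 and 227 bases before that of Vcl. The searched CArG pattern is its own reverse complement, so any match is found on both strands. The box was found in 3 of the 32 windows (Fermt2, Vcl and the second start of Itgb6), and in 1.47% of all 32851 promoter windows. GGGCGG was found in 16 of the 32, and in 32.7% of all windows, and 2 of the 4 matches in Vcl share a base. GGAATG was found in 4 of the 32 (12.6% of all windows), TGTGGT in 4 (14.0%) and TGANTCA in 1, that of Zyx (6.75%). Median GC content was 64.2% in the 32 windows and 52.4% in all. The printed Lpp and Itga1 windows hold none of the 5 motifs, while the window of the second Lpp start (chr16:24721605-24721854) is 1 of the 4 with GGAATG, and the 2 windows with a CArG box among tested genes belong to 1 gene that fell and 1 that did not pass.

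Tested and untested genes differed in the annotation of their 3′ ends. The final 300 exonic bases belong to only 1 annotated transcript (at least 99% of them) in 18 of the 32 genes, of which 17 were tested. In the other 14 they are shared between transcripts, wholly or in part, and 3 of these were tested (Itga6, Itgb5 and Ptk2). For Itgb5 61.7% of these bases lie in a single transcript. Counts summed over the 6 libraries had a median of 1007 in the first set and 7.5 in the second. The fibronectin receptor chain Itga5, the laminin receptor chain Itga3, the collagen receptor chain Itga10, Itgbl1, the pseudokinase Ilk and its partner Lims1 (PINCH) were listed at 0 in all 6 libraries and have shared ends. Itgb6, a beta chain of epithelia, was also at 0 and has an end in a single transcript. Itga7, Itgav, Pxn, Bcar1 and Tns1 had a few counts and have shared ends too. A listed 0 was therefore not read as absence of a transcript, nor a low count at a shared end as a low level. What part the shared ends have in the counts of Itga6, Itgb5 and Ptk2 was not tested. The end of Vcl is overlapped over 100% of these bases by Ap3m1 on the opposite strand, and without a stated strand setting their reads cannot be told apart.

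**Figure D3:**
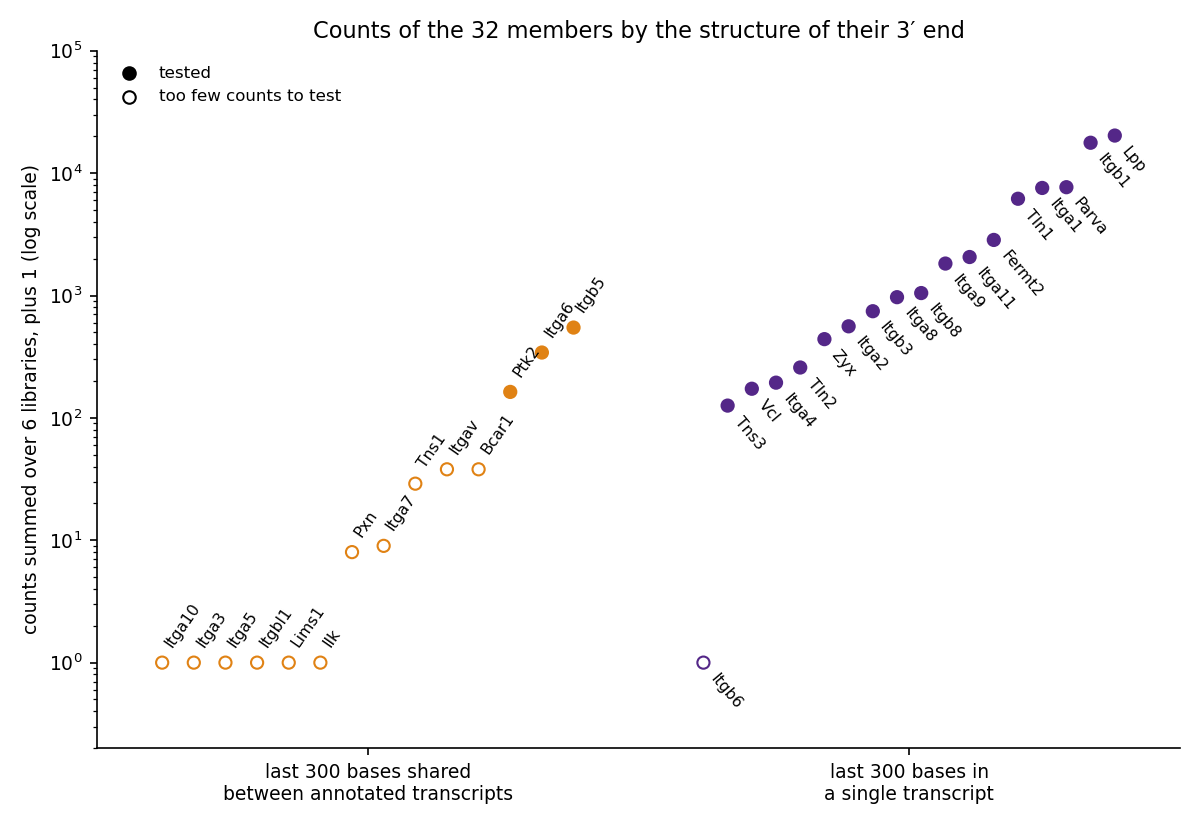
Counts summed over 6 libraries, plus 1, on a log scale, for the 32 genes, each set ordered by counts. The sets are split by whether the last 300 exonic bases are shared, wholly or in part, between annotated transcripts (left) or lie in a single one (right). Filled points were tested. Of the 12 open points, 11 are in the left set.

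The tail of the beta chain is where talins and kindlins bind. Itgb3 (ENSMUSG00000020689, GRCm38 chromosome 11, 104608000 to 104670476, plus strand) had 113, 297 and 226 counts in wt against 37, 15 and 55 in gld. Its level was 53.1, 93.9 and 69.4 CPM in wt against 9.23, 3.96 and 11.3 in gld, so the lowest wt library lay well above the highest gld library. The log2 fold change was −3.13 ± 0.37 (edgeR adjusted p = 2.46e-05), and it ran from −3.46 to −2.83 over the 12 other settings. Itgb5, another partner of alpha v, was at 26.3, 12.96 and 34.7 CPM in wt against 34.4, 30.6 and 16.8 in gld, and the groups overlapped. Its log2 fold change was 0.14, with a 95% interval from −0.72 to 1.01 (edgeR adjusted p = 0.882), an interval that lies apart from that of Itgb3 (−3.92 to −2.33). The Itgb5 value was −0.17 without wt 2 and −0.08 without gld 1. Within each library the log2 ratio of Itgb3 to Itgb5 counts was 1.01, 2.86 and 1.00 in wt and −1.90, −2.95 and −0.58 in gld. This ratio was chosen after the values were seen and was not tested.

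Itgb1, the common beta chain, had levels of 873, 900 and 873 CPM in wt against 843, 824 and 752 in gld. All 3 gld libraries lay below all 3 wt libraries, yet the difference was small, with a log2 fold change of −0.13 and a 95% interval from −0.35 to 0.09 (edgeR adjusted p = 0.480). Itgb8, which with alpha v activates latent TGF-beta, was at 40.9, 79.7 and 58.3 CPM in wt against 53.6, 46.4 and 25.9 in gld. Its groups overlapped, and its log2 fold change of −0.52 had an interval from −1.18 to 0.15 (edgeR adjusted p = 0.319). Itgav itself, the alpha v chain, has a shared 3′ end. It had 0, 2 and 5 counts in wt against 15, 4 and 11 in gld, too few to test. Its pooled level was 2.89-fold higher in gld (95% exact counting interval 1.24 to 7.80). Such intervals pool the libraries of a group, so they cover counting error only and leave out library-to-library spread. With no molecular identifiers mentioned, they may understate counting error too. Where Itgav did enter a fit it was not past the threshold. Its log2 fold change was 1.62 in edgeR without the low-count filter (adjusted p = 0.659) and 1.65 in DESeq2 (adjusted p = 0.647).

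Among the collagen receptor chains, which all pair with beta 1, Itga1 passed the test and Itga2 and Itga11 did not. The differences between these genes were not tested. Itga1 (ENSMUSG00000042284, chromosome 13, 114953096 to 115101964, minus strand) was at 231, 273 and 214 CPM in wt against 402, 487 and 422 in gld, with no overlap. It rose by 0.87 ± 0.14 log2 units (edgeR adjusted p = 0.000313) and kept its call in all 12 other settings. Itga2, whose gene lies 0.021 Mb from Itga1 on the same strand, was at 18.3, 31.9 and 24.3 CPM in wt against 28.2, 26.4 and 26.1 in gld. The gld libraries fell inside the range of wt, and the log2 fold change was 0.11 with an interval from −0.58 to 0.79 (edgeR adjusted p = 0.893). Itga11, the fibrillar collagen receptor chain of fibroblasts and osteogenic cells, was at 87.9, 131 and 117 CPM in wt against 65.9, 105 and 85.8 in gld. These groups overlapped as well, with a log2 fold change of −0.39 and an interval from −0.85 to 0.07 (edgeR adjusted p = 0.266). The log2 ratio of Itga1 to Itga11 counts within a library was 1.40, 1.06 and 0.87 in wt and 2.61, 2.21 and 2.30 in gld, higher in each gld library than in any wt library. It is again a ratio chosen after its values were seen and not tested.

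Itga6 (ENSMUSG00000027111, chromosome 2, 71745616 to 71858416, plus strand) forms laminin receptors with beta 1 or beta 4. It had 6, 26 and 15 counts in wt against 94, 92 and 108 in gld, or 2.82, 8.22 and 4.61 CPM against 23.4, 24.3 and 22.2 CPM. The gld libraries were close to each other and all well above wt, and the gene rose by 2.13 ± 0.48 log2 units (edgeR adjusted p = 0.00551), also past the threshold in the 12 other settings. Its partner Itgb4 is among the genes listed at 0. Itga7, the laminin receptor chain of muscle, had 8 counts in wt 2 and none elsewhere.

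Itga9, a receptor chain for tenascin C, osteopontin and VCAM-1 (ENSMUSG00000039115, chromosome 9, 118606690 to 118901003, plus strand), was at 63.0, 73.7 and 43.9 CPM in wt against 113, 88.9 and 107 in gld. The groups were apart, and it rose by 0.78 ± 0.22 log2 units (edgeR adjusted p = 0.0228). That call is the weakest of the 6. It was lost without wt 1 (adjusted p = 0.0545), wt 3 (0.114), gld 1 (0.0903) or gld 3 (0.0679) and when libraries were scaled by size alone (0.0568), with values from 0.59 to 0.96 over the 12 settings. Its relative Itga4, which also binds fibronectin and VCAM-1, had 3, 24 and 8 counts in wt against 48, 32 and 78 in gld. Groups were apart here too, but on few counts, and the log2 fold change of 1.63 had an interval from 0.16 to 3.11 (edgeR adjusted p = 0.134). Without wt 2, its highest wt library, it was 2.60 (edgeR adjusted p = 0.0345).

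Itga8, the receptor chain for nephronectin, was at 44.2, 53.7 and 74.6 CPM in wt against 32.2, 40.1 and 37.0 in gld. Each gld library lay below each wt library, with a log2 fold change of −0.66 and an interval from −1.21 to −0.12, but the gene did not pass (edgeR adjusted p = 0.0979). It passed only when libraries were scaled by size alone (−0.82, adjusted p = 0.0353).

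Macrophages and other leukocytes also carry alpha 4, alpha 9 and beta 2 integrins. Of 20 macrophage and leukocyte markers 11 were tested, of which 10 were higher in gld and 1, Cd14, was lower. Their summed level ran from 255 to 432 CPM in wt and from 2461 to 6681 CPM in gld. Csf1r, Adgre1, Tyrobp, Fcer1g, Ctss and the leukocyte chain Itgb2 were at 0 in every library, a value not read as absence for the reason given above. Of the 9 integrin chains outside the 32 genes, 6 were at 0 and none could be tested. Chains with a few counts are named here after their values were seen. The leukocyte chain Itgam had 3 counts, all in gld 3, and Itgax had 4, all in gld 2, while Itga2b, the platelet chain that pairs with beta 3, had 3 counts in wt 1 and 7 in gld 3. What part these cells had in the levels of Itga1, Itga4, Itga6 and Itga9 was not tested.

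Of the 4 genes whose products switch integrins on or link them to actin, 1 fell and 3 did not pass. Fermt2, kindlin-2, the kindlin of mesenchymal cells (ENSMUSG00000037712, chromosome 14, 45458795 to 45530118, minus strand), was at 171, 211 and 161 CPM in wt against 100.03, 107 and 99.2 in gld. No gld library reached the lowest wt library, and Fermt2 fell by 0.83 ± 0.16 log2 units (edgeR adjusted p = 0.00174), holding in all 12 other settings. Tln1, the talin found in most cells, was at 248, 283 and 231 CPM in wt against 344, 281 and 319 in gld. Only wt 2 and gld 2 overlapped, narrowly, and its log2 fold change was 0.31 with an interval from 0.02 to 0.60 (edgeR adjusted p = 0.148). The Tln1 and Fermt2 intervals lie on opposite sides of 0 in this fit, though Tln1 did not pass. With scaling by library size alone Tln1 was at 0.16 ± 0.13 (edgeR adjusted p = 0.502). The log2 ratio of Fermt2 to Tln1 counts was −0.54, −0.43 and −0.52 in wt and −1.78, −1.39 and −1.69 in gld. That ratio was picked after its values were seen and was not tested.

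Tln2, the second talin, had 28, 18 and 8 counts in wt against 75, 66 and 62 in gld. On CPM wt 1 (13.2) reached into the gld range, which began at 12.7, and the log2 fold change of 1.23 did not pass (interval −0.03 to 2.48, edgeR adjusted p = 0.194). Without wt 1 it was 1.99 (edgeR adjusted p = 0.0484). Vcl, vinculin, had 25, 31 and 24 counts in wt against 59, 18 and 15 in gld. Only gld 1 was high, the groups overlapped, and the log2 fold change of −0.36 had a wide interval from −1.77 to 1.06 (edgeR adjusted p = 0.807). Leaving out gld 1 moved it to −1.31 (edgeR adjusted p = 0.309).

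Of the 3 genes of the ILK, PINCH and parvin complex among the 32, Ilk and Lims1 were at 0 and Parva, alpha-parvin, was tested. Parva was at 420.1, 377 and 402 CPM in wt against 320, 357 and 337 in gld, and every gld library lay below every wt library. The log2 fold change was −0.24 with an interval from −0.49 to 0.01 (edgeR adjusted p = 0.201), and it passed only with scaling by library size alone (−0.40, adjusted p = 0.0301).

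Lpp, a LIM protein of the zyxin family that binds alpha-actinin and VASP (ENSMUSG00000033306, chromosome 16, 24393507 to 24992578, plus strand), had 2447, 5636 and 4350 counts in wt against 2580, 2319 and 2944 in gld. At 1150, 1782 and 1336 CPM in wt against 644, 611 and 604 in gld, the gld libraries were nearly alike and all below wt. Lpp fell by 1.20 ± 0.14 log2 units (edgeR adjusted p = 2.44e-05), from −1.35 to −1.003 over the 12 other settings. Zyx, zyxin, was at 28.7, 46.2 and 19.96 CPM in wt against 14.5, 17.4 and 8.83 in gld, also without overlap. Its log2 fold change of −1.22 ± 0.40 just missed the threshold (edgeR adjusted p = 0.0525). It passed with the replicate block (0.0419), without the low-count filter (0.0310), in limma-voom (0.0456), with scaling by library size alone (0.0252) and without wt 3 (0.0334), and was at 0.273 without wt 2.

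The genes of the kinase FAK and its scaffolds had few counts. Ptk2, Bcar1 and Pxn all have shared 3′ ends, so these counts were not read as low expression. Ptk2, which encodes FAK, had 6, 22 and 6 counts in wt against 55, 12 and 61 in gld, where gld 2 lay within the wt range, and its log2 fold change was 1.33 with an interval from −0.32 to 2.97 (edgeR adjusted p = 0.299). Without wt 2 it was 2.08 (edgeR adjusted p = 0.157). Bcar1, p130Cas, had no count in wt and 21, 6 and 10 in gld. Its pooled gld level was 8.32-fold a floor of 3 counts over the wt group. That value leaves out counting error in gld and library-to-library spread, so it is not a lower limit. Bcar1 was too low for the main test and had an adjusted p = 0.0471 in DESeq2 and 0.0983 in edgeR without the low-count filter. Pxn, paxillin, had 7 counts in gld 1 and none elsewhere. Of the tensins, which bind the beta tail and actin, Tns3 had 1, 5 and 15 counts in wt against 22, 47 and 35 in gld, without overlap on CPM (log2 fold change 1.85, interval −0.01 to 3.72, edgeR adjusted p = 0.185). Without wt 3 the value for Tns3 was 2.92 (edgeR adjusted p = 0.0914). Tns1 went the other way on fewer counts, 5, 8 and 9 in wt and 0, 6 and 0 in gld, and was too low for the main test. It entered 5 of the 12 other settings and passed in none, with log2 fold changes from −2.31 to −2.17 and adjusted p from 0.506 to 0.637 in edgeR and DESeq2.

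**Figure D4:**
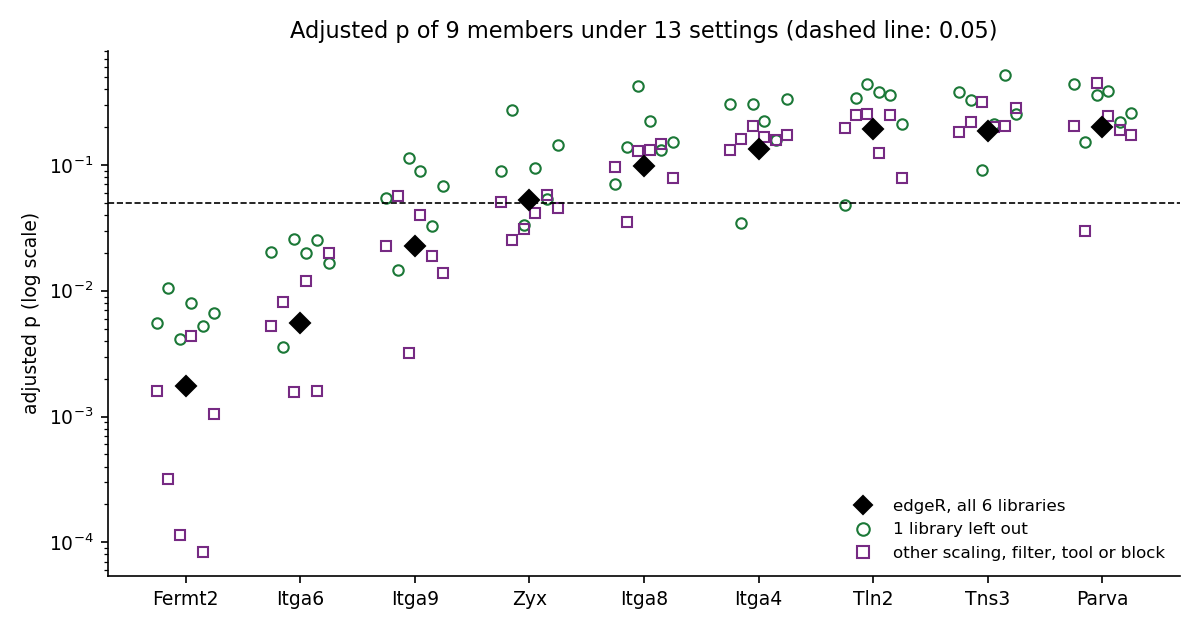
Adjusted p (log scale) of 9 of the genes with all 6 libraries (black diamonds), with 1 library left out (green circles) and with another scaling, filter, tool or the replicate block (purple squares). Fermt2 and Itga6 stayed below 0.05 (dashed line) in every setting, Itga9 crossed it in 5 of 12, and Zyx lay on both sides.

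Smooth muscle and myofibroblast markers, which encode contractile actin fibre proteins, were lower in gld, as were Itgb3, Lpp and Fermt2. Of 8 such markers 5 were tested and all 5 fell (Acta2, Tagln, Cnn1, Myl9 and Lmod1), with a summed level from 6964 to 7680 CPM in wt and from 3321 to 3458 CPM in gld. Among the wt libraries, wt 2 had the lowest summed marker level and the highest level of Itgb3, Lpp and Fermt2. That order rests on 3 libraries, and no conclusion was drawn from it. What part the cells with these markers had in the changes of Itgb3, Lpp and Fermt2 was not tested.

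Other genes of the same pathway were grouped by role. Of 37 focal adhesion adaptors and actin linkers 20 were tested, of which 2 rose, 5 fell and 13 did not pass. That is 35.0% past the threshold, beside 17.4% of all genes tested, and the median log2 fold change was −0.16. Actn1, the alpha-actinin that crosslinks actin at adhesions, fell by 1.06 ± 0.11 log2 units, from 1308 ± 127 to 625 ± 41.0 CPM (edgeR adjusted p = 6.84e-06). The PDZ-LIM gene Pdlim5 fell by 1.42 ± 0.14, Fhl3, a LIM-only protein, by 1.13 ± 0.20 and Parvb, beta-parvin, by 0.95 ± 0.24 (edgeR adjusted p = 4.21e-06, 0.000951 and 0.0125). Enah, which extends actin filaments, rose by 0.54 ± 0.14 and Pdlim1 by 2.04 ± 0.55 (edgeR adjusted p = 0.0144 and 0.0182). Parvb was not past without wt 3 (0.0947), and neither was Enah without wt 1 (0.0645), wt 3 (0.0887), gld 1 (0.0831) or gld 2 (0.0571) or with scaling by size alone (0.0655). The Pdlim1 call was lost without wt 2 (0.0508), wt 3 (0.0670) or gld 3 (0.142), in limma-voom (0.0747) and with the replicate block (0.0528).

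In the list of integrin activation and trafficking, 10 of 23 genes were tested, with 1 higher, 3 lower and 6 not past, and a median of −0.04. The share past the threshold was 40.0%, beside 17.4% of all genes tested. Rap1b, a small GTPase that recruits talin, rose by 0.61 ± 0.12 log2 units (edgeR adjusted p = 0.00281). Apbb1ip, the Rap1 effector RIAM, fell by 0.74 ± 0.18, Kank1, a talin-binding protein at the adhesion rim, by 1.07 ± 0.21, and Rab21, which returns integrins from endosomes, by 0.62 ± 0.17 (edgeR adjusted p = 0.00982, 0.00198 and 0.0189). Apbb1ip was at 0.0516 without wt 2, and Rab21 at 0.0931 without wt 2 and 0.0748 without gld 1.

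Genes of FAK, Src and small GTPase signalling gave 2 higher, 1 lower and 16 not past among 19 tested of 32 listed genes (31 matched), a median of −0.02 and a share (15.8%) near the 17.4% of all genes tested. Rhoa rose by 0.59 ± 0.16 log2 units, Elmo1, a partner of the Rac exchange factor DOCK1, by 2.63 ± 0.78, and Rock2, a kinase that promotes actomyosin contraction, fell by 0.51 ± 0.16 (edgeR adjusted p = 0.0177, 0.0304 and 0.0331). None of these calls held throughout. Rhoa was lost without wt 3 (0.0830) or gld 3 (0.110) and with scaling by size alone (0.0672). Elmo1 was lost without wt 3 (0.109), gld 1 (0.0972), gld 2 (0.0742) or gld 3 (0.0625) and in limma-voom (0.0841), where its log2 fold change was 3.26, and without wt 2 that value was 3.99 (0.00647). Rock2 was lost without wt 1 (0.0946), wt 2 (0.122) or gld 1 (0.129).

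Of 16 integrin-associated membrane proteins 9 were tested, with 1 higher, 1 lower and 7 not past, and a median of −0.14. Past the threshold were 22.2%, beside 17.4% of all genes tested. The heparan sulfate proteoglycan Sdc2 rose by 0.89 ± 0.13 log2 units (edgeR adjusted p = 0.000156), and Cavin1, a coat protein of caveolae, fell by 0.31 ± 0.10 (edgeR adjusted p = 0.0385). The Cavin1 call was lost without wt 3 (0.160), gld 1 (0.0876), gld 2 (0.103) or gld 3 (0.0652), with the replicate block (0.0609) and without the low-count filter (0.129).

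Among matrix and cell-surface ligands the test gave 11 higher, 4 lower and 13 not past among 28 tested of 41, with a median of 0.21. That is 53.6% past the threshold, beside 17.4% of all genes tested. Whether the ligand share differs from that of the receptors was not tested. Ligands of the collagen receptor chains rose, from 7621 ± 1653 to 27144 ± 1821 CPM for Col1a1, from 11321 ± 2537 to 36358 ± 1707 CPM for Col1a2 and from 4571 ± 1027 to 12214 ± 204 CPM for Col3a1, while only Itga1 among the 3 tested chains passed. Ccn3, a matricellular ligand, rose by 3.89 ± 0.16 log2 units (edgeR adjusted p = 6.08e-10). Thbs1, a ligand of beta 3 and other integrins, fell by 2.12 ± 0.13, the disintegrin Adam12 by 2.66 ± 0.24, Ccn1 by 0.71 ± 0.15 and Ccn4 by 0.61 ± 0.15 (edgeR adjusted p = 4.96e-08, 1.69e-06, 0.00354 and 0.00845). The fibronectin gene Fn1, singled out after its values were seen, has a shared end and had 39, 175 and 148 counts in wt against 217, 142 and 162 in gld, with a log2 fold change of 0.05 (edgeR adjusted p = 0.960).

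**Figure D5:**
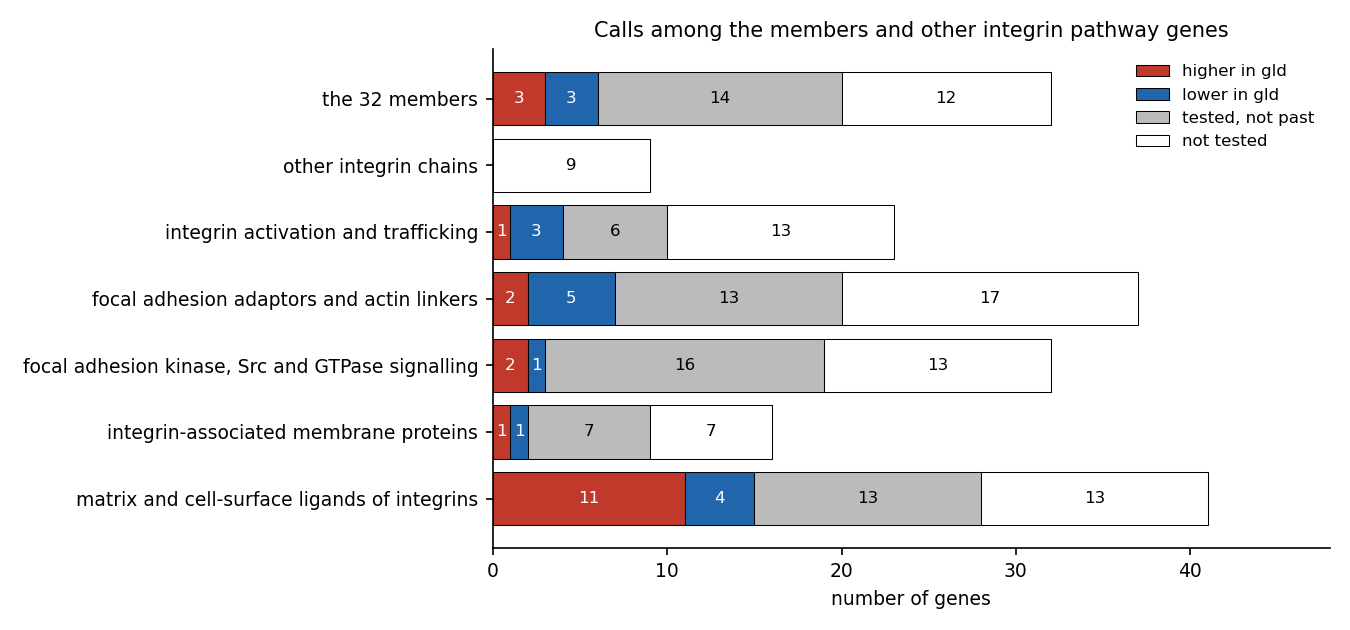
Number of genes (horizontal axis) in the 32 integrin and focal adhesion genes and in 6 lists of other integrin pathway genes that were higher in gld, lower in gld, tested but not past an adjusted p of 0.05, or not tested. Lower calls outnumber higher ones among adaptors and actin linkers (5 against 2), and higher calls outnumber lower ones among ligands (11 against 4). Of all genes tested, 9.74% were higher and 7.69% lower.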

How the data were processed

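RNA of 3 wt and 3 gld libraries was sequenced from QuantSeq 3′ mRNA-Seq FWD libraries as single reads of 75 nt, per the labels' protocols and the design text. The deposited table holds raw counts, whole numbers for each Ensembl identifier. Per the design text, reads were trimmed with Cutadapt and aligned with STAR, while DESeq2, Trim Galore, FastQC and the mm10 build appear in the submitters' processing notes. How reads were assigned to genes, with which strand setting and annotation, is not given in the sources used here. One row without an identifier was left out (1 of the table's rows), and 0 sample columns were unused.

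Genes passed filterByExpr (minimum count 10, minimum total 15) and TMM gave the library scaling. Gld was compared with wt by the quasi-likelihood F test of edgeR 4.0.16 in R 4.3.3, without covariates and with Benjamini-Hochberg adjustment over 8692 genes. SEs were derived from the log2 fold change and its F statistic. Symbols, positions and 3′ ends came from GENCODE mouse M21 (GRCm38). The procedure was tested on simulated counts. Alternatives were DESeq2 1.42.0, limma-voom (limma 3.58.1), other scalings, no filter, a replicate block and each library left out. The 32 genes and all lists were chosen with earlier results of these data known. Of each list, up to 4 called genes per direction are named in order of adjusted p. Replicates differed by more than sampling noise (chi-square per degree of freedom 6.44 to 15.0).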

Additional observations from a re-analysis of the deposited data

How the results depend on the processing

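Of 240 values of the 20 tested genes under 12 alternatives, 226 kept their side of the threshold, 5 lost a call (all Itga9), 9 gained one and none of the called values changed sign. Scaling by library size alone shifted the all-gene median (log2) from 0.02 to −0.14 and the split of calls from 847 higher and 668 lower to 720 and 975. It raised the number of these genes called lower from 3 to 6, by Itga8, Parva and Zyx, and left 2 higher. With the replicate block 1359 genes were called, against 1515 without it, and 3 of these genes were higher and 4 lower, Zyx being the addition. Same-numbered libraries did not deviate together (r from −0.02 to −0.01). No pairing by number was seen, though such values cannot exclude one. With 1 library left out, 1224 to 1424 genes were called, 2 to 4 of the 32 higher and 3 to 4 lower. At these depths a group's count of 0 allows up to 0.351 CPM of assigned reads in wt and 0.237 CPM in gld, by counting error alone. It sets no limit on transcripts whose reads were not assigned to the gene.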
